A study of Mus musculus with 27 samples.

Results

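The interaction of CBLB502 with 15 Gy of gamma rays at 24 h asks whether the change that CBLB502 made in intestinal RNA differed between irradiated and unirradiated mice. It is the log2 fold change of CBLB502 given before 15 Gy, against 15 Gy alone, minus the log2 fold change of CBLB502 alone against control. It was computed from 4 groups of 3 libraries, 12 of the 27 libraries of the series, assigned to groups by their labels. The groups were chosen with earlier results of these data known. All mice were C57BL/6 males of 6 to 8 weeks. The control group is labelled as untreated, while the design text of the series speaks of PBS as the control for CBLB502. The CBLB502 group received 0.2 mg per kg of the agent by intraperitoneal injection without radiation and was sampled at 24 h. The 15 Gy group received 60Co gamma rays at 72 R per min and was sampled at 24 h. The combined group received CBLB502 at 0.2 mg per kg, 0.5 h before 15 Gy per the design text, and was sampled at 24 h as well. The other 15 libraries come from 5 groups given 6 Gy or 15 Gy at other times, or 6 Gy at 24 h with and without CBLB502. The design text counts 7 groups of 10 mice where the labels hold 9 groups, and it is not stated whether a library is 1 mouse. The p-values therefore measure the spread between libraries, which may be technical.

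CBLB502, also named entolimod, is a shortened flagellin, the protein from which bacterial flagella are built. Flagellin binds Toll-like receptor 5, which signals through the adaptor MyD88 to NF-kB and turns on genes of innate defence in epithelial cells. In the intestine these include antimicrobial lectins, chemokines and enzymes that modify the glycans of the mucosal surface. High doses of gamma rays damage the DNA of dividing crypt cells, activate p53 and reduce the supply of new epithelial cells. An interaction describes the joint effect of 2 treatments. A value of 0 means that the CBLB502 fold change was the same with and without 15 Gy, a negative value that it was lower with 15 Gy, and a positive value that it was higher with 15 Gy.

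The 12 libraries held 60.6 to 86.9 M counts each. Levels of single genes are counts relative to the TMM-scaled library size (CPM), given library by library in the order of the replicate numbers, and each effect is a log2 fold change ± its SE (n = 3 libraries in every group). Sums over a list of genes, also written as CPM, are relative to the total counts without TMM scaling, so the 2 are not on the same scale. A gene is called when its adjusted p in edgeR's quasi-likelihood test is under 0.05 among 11118 genes tested, and rose, fell or changed is written of called genes only. Markers of enterocytes, the absorptive cells of the intestinal lining, were abundant. All 29 listed enterocyte genes were in the table and together took 121800 to 164800 CPM in the 12 libraries. Some libraries stood apart within the 15 Gy group. Replicate 2 had a smooth muscle score of 3.12 and 11.8 CPM of Acta2, an actin of smooth muscle, against 0 and 0.883 CPM in the other 2. Replicate 3 had 5.28 CPM of the pancreatic amylase gene Amy2a3, against 0.0523 and 0.746 CPM. A score is the mean over the listed genes of log2 CPM minus the gene's mean over all 27 libraries. The clock score, higher where Arntl is high and Dbp is low, was -2.58 ± 0.35 in control, -1.65 ± 1.04 with CBLB502 alone, 1.20 ± 2.55 after 15 Gy (4.14 in replicate 1) and 2.35 ± 1.38 with both. The score of genes of the proximal small intestine was -0.07 ± 0.15, 0.88 ± 0.41, -0.31 ± 0.48 and 0.25 ± 0.27 in the same order. The share of counts from mitochondrially encoded genes was 14.0 ± 3.32% in control, 14.7 ± 8.59% with CBLB502 alone, 17.3 ± 4.49% after 15 Gy and 16.3 ± 2.10% with both.

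The CBLB502 effect differed between irradiated and unirradiated mice for a small set of genes, and 24 of them were called for CBLB502 without radiation and none for CBLB502 with 15 Gy. The interaction was called for 25 of 11118 genes (0.225%), positive for 17 (0.153%) and negative for 8 (0.072%). The strongest negative values belonged to Fut2, a fucosyltransferase gene, and to Gml2 and Gml, of the Ly6 family, and the strongest positive value to the chemokine gene Ccl24. In 22 of the 25 genes the group farthest from the other 3 was CBLB502 alone, above them in 6 genes and below them in 16. The exceptions were Ccl28, where the combined group lay lowest, Sh3bp5, where control lay lowest, and H2-T23, where control lay highest. In 22 of the 25 genes all 3 CBLB502-alone libraries lay outside the range of the other 9, which was so for 841 genes (7.56%) of all tested, above the others for 3.53% and below them for 4.03%. Since the interaction itself uses these libraries, that count describes the called genes and is no separate evidence.

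The components of the interaction are given for the same called genes. The CBLB502 effect without radiation was called for 24 of the 25 genes, all but Ccl28, against 638 of all genes tested (5.74%). The CBLB502 effect with 15 Gy was called for none of the 11118 genes (0%) by edgeR, with 867 at an unadjusted p under 0.05 (7.80%) and 63 called by DESeq2. In 22 of the 25 genes its size was under 0.7 on the log2 scale, and in 20 of 25 its sign was opposite to that of the effect without radiation. Over all genes tested the 2 signs were the same for 61.0%. The interaction is the difference of these 2 effects, so calling genes by it favours opposite signs. The count of 20 is thus no separate evidence. The 15 Gy effect without CBLB502 was called for 3 of the 25 (Sh3bp5, Cpe and H2-T23), against 549 of all genes (4.94%). The 15 Gy effect on top of CBLB502 was called for 24 of the 25, all but Sh3bp5, against 1908 of all genes (17.2%). The split into higher and lower genes was 276 (2.48%) and 362 (3.26%) for CBLB502 alone, 292 (2.63%) and 257 (2.31%) for 15 Gy alone and 997 (8.97%) and 911 (8.19%) for 15 Gy on top of CBLB502. With limma on log2(FPKM + 1) it was 104 and 252 for CBLB502 alone and 1295 and 361 for 15 Gy on top of CBLB502. These components share libraries with the interaction. All 25 interactions had the same sign when computed as differences of CPM instead of log2 values.

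**Figure D1:**
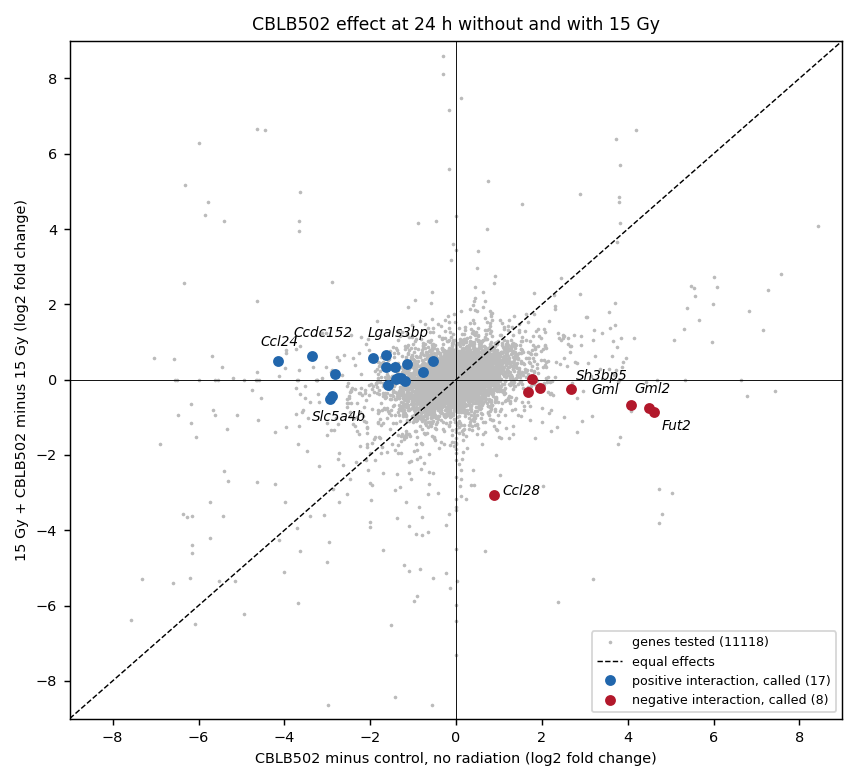
Each point is 1 of 11118 genes, with the log2 fold change of CBLB502 without radiation on the x axis and with 15 Gy on the y axis, and the dashed line marks equal effects; 15 genes lie outside the axes. The 17 called genes with a positive interaction (blue) lie to the left and the 8 with a negative interaction (red) to the right, and all of them except Ccl28 lie within about 1 of 0 on the y axis.

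The number of called genes rested on single libraries. It was 48 without control replicate 3 and 48 without 15 Gy replicate 2, the library with the smooth muscle signal, in both of which 23 of the 25 genes were called. It fell to 11 and 8 without control replicate 1 or 2, to 8 and 9 without 15 Gy replicate 1 or 3, to 16 and 15 without CBLB502 replicate 1 or 2, and to 12 and 7 without replicate 2 or 3 of the combined group. With the 12 libraries fitted alone 4 genes were called, of which Fut2, Gml2 and Trub2 were among the 25, while DESeq2 called 128, the 25 included. Fut2, Lyve1, Cpe, Agmo and Trub2 were called in each of the 12 fits that left out 1 library. All 25 kept their direction in every fit that held them. Ccdc152 had a value in 12 of the 13 fits other than those that left out 1 library. The remaining fit applied the filter within the 12 libraries, which Ccdc152 did not pass. It entered the main fit only through libraries outside the interaction.

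Among the 8 negative interactions, Fut2, Gml2 and Gml were raised 17.0 to 24.6-fold by CBLB502 alone, with estimates of -0.86 to -0.68 for CBLB502 given with 15 Gy. Fut2 (ENSMUSG00000055978, chr7:45648591-45666394, GRCm38) encodes a fucosyltransferase that attaches fucose to sugar chains on the epithelium and is known to be switched on by microbial signals. It stood at 2.33, 1.87 and 1.46 CPM in control, 40.9, 71.8 and 26.8 CPM with CBLB502 alone, 3.41, 1.59 and 1.74 CPM after 15 Gy and 1.51, 0.839 and 1.38 CPM with both. The 3 libraries of CBLB502 alone lay above all others, and the other 9 overlapped. Its interaction was -5.48 ± 0.66 (adjusted p = 0.000549), from a CBLB502 effect of 4.62 ± 0.50 without radiation (adjusted p = 8.54e-05) and -0.86 ± 0.46 with 15 Gy. Gml2 (ENSMUSG00000068600, chr15:74819071-74834871) and Gml (ENSMUSG00000068349, chr15:74813452-74818815) belong to the Ly6 family of small proteins held in the cell membrane by a glycolipid anchor. They are neighbours on opposite strands with 255 bases between them. For Gml2 the levels were 1.90, 1.39 and 2.95 CPM in control, 38.5, 52.9 and 49.7 CPM with CBLB502 alone, 3.00, 0.990 and 3.67 CPM after 15 Gy and 1.94, 1.88 and 0.752 CPM with both. For Gml they were 4.83, 4.71 and 7.90 CPM in control, 76.8, 109.8 and 109.7 CPM with CBLB502 alone, 6.83, 2.12 and 8.40 CPM after 15 Gy and 5.0, 4.30 and 1.54 CPM with both. In both genes the CBLB502-alone libraries lay above the other 9, whose groups overlapped. The interaction was -5.24 ± 0.88 (adjusted p = 0.0118) for Gml2 and -4.76 ± 0.99 (adjusted p = 0.0432) for Gml. Gml2 was called in 10 of the 12 fits that left out 1 library and Gml in 2 of the 12. The 2 genes are related in sequence, and how reads shared between them were counted is not given in the sources used here.

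Lyve1, Cpe and Slc38a1 had the same form with smaller changes. Lyve1 encodes a hyaluronan receptor of lymphatic vessels and stood at 1.57, 2.15 and 3.09 CPM in control, 7.69, 11.5 and 7.14 CPM with CBLB502 alone, 3.40, 2.04 and 2.95 CPM after 15 Gy and 2.26, 2.61 and 2.27 CPM with both. The libraries of CBLB502 alone lay above the other 9, which overlapped, and the interaction was -2.18 ± 0.36 (adjusted p = 0.0118). Its CBLB502 effect was 1.95 ± 0.26 without radiation (adjusted p = 0.000328) and -0.23 ± 0.26 with 15 Gy. It was 1 of 2 endothelial genes of 10 listed that passed the filter, and the summed level of the 10 was 7.46 to 13.1 CPM with CBLB502 alone, most of it Lyve1 itself, against 4.0 to 6.71 CPM in the other 9 libraries. The other endothelial gene tested, Plvap, a protein of the diaphragms of capillary pores, had its lowest mean with CBLB502 alone, at 0.495 ± 0.339 CPM in control, 0.0814 ± 0.0888 CPM with CBLB502 alone, 0.253 ± 0.296 CPM after 15 Gy and 0.234 ± 0.205 CPM with both. Its interaction was 2.43 ± 1.73 (adjusted p = 0.729), and 3 of the 10 endothelial genes were at 0 in all CBLB502-alone libraries. In bulk RNA, more cells of a type and more RNA per cell cannot be told apart. Cpe encodes carboxypeptidase E, which trims prohormones in endocrine cells, and stood at 11.1, 8.09 and 5.58 CPM in control, 23.6, 31.0 and 24.6 CPM with CBLB502 alone, 14.8, 11.4 and 16.2 CPM after 15 Gy and 10.5, 12.9 and 10.2 CPM with both. The CBLB502-alone libraries lay highest without overlap, and control had the lowest mean and overlapped the combined group. Cpe was also 1 of the 3 genes called for 15 Gy alone, where it rose by 0.78 ± 0.23, and its interaction was -2.02 ± 0.32 (adjusted p = 0.00966). Slc38a1, a transporter of glutamine and other neutral amino acids, stood at 34.3, 66.2 and 28.1 CPM with CBLB502 alone, against 14.5, 14.0 and 9.41 CPM in control, 15.2, 14.2 and 16.1 CPM after 15 Gy and 16.2, 13.7 and 16.2 CPM with both. CBLB502 replicate 2 was the highest of all 12 libraries, the other 2 of its group also lay above the rest, and the interaction of -1.74 ± 0.35 (adjusted p = 0.0337) was called in 3 of the 12 fits that left out 1 library. Slc38a1 was named after its values were seen.

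The 2 remaining negative interactions had other shapes. Sh3bp5, whose product activates the small GTPase Rab11 and which was named after its values were seen, stood at 0.493, 0.857 and 0.760 CPM in control, 4.83, 2.30 and 6.33 CPM with CBLB502 alone, 7.55, 4.45 and 4.28 CPM after 15 Gy and 4.11, 6.02 and 3.53 CPM with both. All 3 control libraries lay below the other 9, and the 3 treated groups overlapped. It rose by 2.67 ± 0.39 with CBLB502 alone and by 2.94 ± 0.39 with 15 Gy alone, while adding the second treatment gave -0.25 ± 0.36 for CBLB502 and 0.02 ± 0.36 for 15 Gy, so that the interaction was -2.92 ± 0.52 (adjusted p = 0.0189). It overlaps Capn7 on the opposite strand, which had 1620 mean counts against 456.7 for Sh3bp5 and an interaction of -0.03 ± 0.19. Ccl28 encodes a chemokine of mucosal epithelia that draws IgA-producing plasma cells. It stood at 5.98, 7.70 and 15.9 CPM in control, 22.0, 22.5 and 9.78 CPM with CBLB502 alone, 22.9, 3.48 and 10.6 CPM after 15 Gy and 1.42, 1.32 and 1.67 CPM with both. The combined group lay below all other libraries and had the smallest spread, whereas the 15 Gy libraries ran from 3.48 to 22.9 CPM. The interaction of -3.94 ± 0.81 (adjusted p = 0.0404) was called in 3 of the 12 fits that left out 1 library, and the effect of CBLB502 with 15 Gy, -3.06 ± 0.60, had an adjusted p of 0.167.

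**Figure D2:**
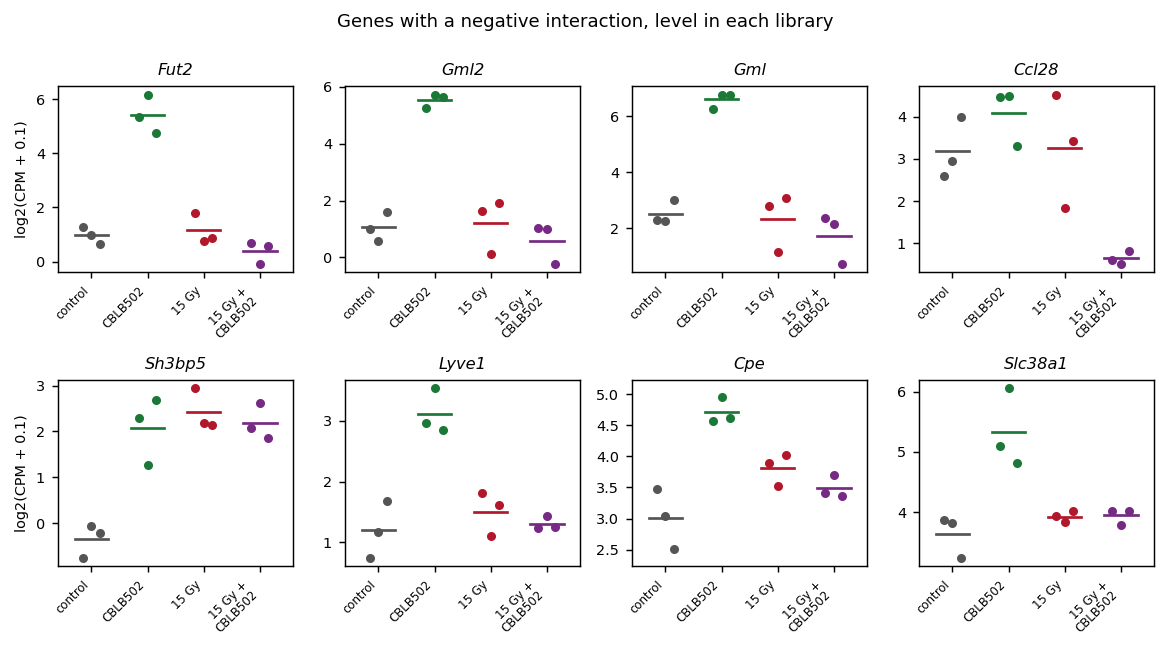
Levels of the 8 genes with a negative interaction in each of the 12 libraries, as log2(CPM + 0.1), with 1 point per library and a line at the group mean. In 6 panels the 3 CBLB502-alone points (green) lie above the other 9, in the Sh3bp5 panel the control points lie lowest and in the Ccl28 panel the combined group lies lowest.

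All 17 genes with a positive interaction fell with CBLB502 alone. They are described by known role, an order set after the calls and not a test of any theme. Ccl24, also named eotaxin-2, attracts eosinophils. It stood at 6.82, 19.7 and 9.91 CPM in control, 0.970, 0.0948 and 1.01 CPM with CBLB502 alone, 6.32, 10.8 and 3.12 CPM after 15 Gy and 8.69, 6.12 and 14.0 CPM with both. The CBLB502-alone libraries lay below the other 9, and the other groups overlapped. It fell 17.6-fold with CBLB502 alone, and the interaction was 4.65 ± 0.88 (adjusted p = 0.0266), called in 8 of the 12 fits that left out 1 library. Lgals3bp, a secreted glycoprotein that binds galectins, stood at 636, 493 and 400.2 CPM in control, 176, 127 and 191 CPM with CBLB502 alone, 284, 344 and 166 CPM after 15 Gy and 406, 473 and 362 CPM with both. Here replicate 3 of the 15 Gy group lay within the range of CBLB502 alone, and the interaction was 2.28 ± 0.44 (adjusted p = 0.0266). Ctss encodes cathepsin S, a protease that prepares MHC class II molecules for peptide loading. It stood at 352, 336 and 254 CPM in control, 172, 208 and 169.7 CPM with CBLB502 alone, 229, 248 and 230.3 CPM after 15 Gy and 256, 269 and 282 CPM with both, and the CBLB502-alone libraries lay lowest without overlap. Its interaction of 0.97 ± 0.20 (adjusted p = 0.0455) was the smallest of the called values and was called in 3 of the 12 fits that left out 1 library. H2-T23 encodes Qa-1, a non-classical MHC class I molecule, and stood at 987, 993 and 792 CPM in control, 414, 347 and 452 CPM with CBLB502 alone, 618, 517 and 599 CPM after 15 Gy and 509, 593 and 601 CPM with both. Control lay highest and CBLB502 alone lowest, each without overlap with the other libraries, and the irradiated groups lay between. H2-T23 fell by 1.19 ± 0.17 with CBLB502 alone and by 0.68 ± 0.17 with 15 Gy alone, and its interaction was 1.17 ± 0.24 (adjusted p = 0.039). The pseudogene H2-T-ps, 76.4 kb away on the same strand and named after its values were seen, had an interaction of 1.56 ± 0.28 (adjusted p = 0.0189). It overlaps Gm7030 on the same strand, which had 3278 mean counts against 1873 for H2-T-ps, so the values of these similar genes are uncertain.

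The promoters of H2-T23, Ctss and Agmo are shown because among the called genes with a promoter sequence only these held the core letters of the interferon-stimulated response element, TTTC and TTTC with any 2 bases between them. RefSeq sequences (GRCm38.p6, 250 bases before to 50 bases after the start of the gene) were matched for 16 of the 25 called genes. The motif was found on either strand in 3 of these 16, against 253 of 7699 promoters of all genes tested (3.29%). The NF-kB letters, GGG and CC with any 5 bases between them, were found in 7 of 16, against 68.7% of all. TTCNNNGAA was found in 2 of 16 against 6.73%, CACGTG in 2 against 10.5%, TGANTCA in 2 against 5.51%, TTANGTAA in 0 against 1.38% and the PPAR element, AGGTCA and AGGTCA with any 1 base between them, in 0 against 0.0779%. A match is a description of these letters and not a binding site. The sequences run 5′ to 3′ on the gene's strand, with the matched letters in capitals, in Ctss as the reverse complement, and in Agmo the first capitals mark TTCNNNGAA. H2-T23 lies at chr17:36032652-36032951 on the minus strand, Ctss at chr3:95526536-95526835 on the plus strand and Agmo at chr12:37241389-37241688 on the plus strand.
H2-T23: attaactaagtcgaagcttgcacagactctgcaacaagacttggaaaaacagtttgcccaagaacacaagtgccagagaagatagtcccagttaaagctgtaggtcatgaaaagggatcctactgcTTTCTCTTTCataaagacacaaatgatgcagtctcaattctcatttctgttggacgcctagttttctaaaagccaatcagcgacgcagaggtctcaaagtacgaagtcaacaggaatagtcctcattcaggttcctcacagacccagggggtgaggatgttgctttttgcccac
Ctss: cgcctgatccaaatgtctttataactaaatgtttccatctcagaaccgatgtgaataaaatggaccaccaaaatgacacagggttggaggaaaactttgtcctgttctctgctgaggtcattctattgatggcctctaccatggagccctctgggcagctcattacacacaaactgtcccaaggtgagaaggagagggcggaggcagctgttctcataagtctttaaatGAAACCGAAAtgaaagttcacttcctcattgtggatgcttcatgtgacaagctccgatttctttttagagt
Agmo: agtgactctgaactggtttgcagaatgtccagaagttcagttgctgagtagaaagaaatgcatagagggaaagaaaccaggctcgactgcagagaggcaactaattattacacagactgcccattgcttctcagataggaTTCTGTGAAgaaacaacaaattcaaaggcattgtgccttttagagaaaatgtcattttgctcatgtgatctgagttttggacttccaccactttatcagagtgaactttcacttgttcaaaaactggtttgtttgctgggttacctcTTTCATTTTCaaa

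Further genes with a positive interaction encode transporters and enzymes of lipid handling. Slc5a4b, a member of the sodium-glucose cotransporter family, stood at 168, 126 and 111 CPM in control, 21.7, 9.35 and 22.1 CPM with CBLB502 alone, 112, 100.3 and 122 CPM after 15 Gy and 52.8, 68.2 and 111 CPM with both. The CBLB502-alone libraries lay below the other 9, the combined group overlapped 15 Gy, and the interaction was 2.40 ± 0.45 (adjusted p = 0.0264). Slc28a1, a transporter of pyrimidine nucleosides, stood at 94.9, 125 and 143 CPM in control, 42.2, 32.9 and 42.3 CPM with CBLB502 alone, 71.9, 167 and 144 CPM after 15 Gy and 139, 137 and 204 CPM with both. The CBLB502-alone libraries again lay lowest, and the interaction of 1.95 ± 0.35 (adjusted p = 0.0189) was called in 9 of the 12 fits that left out 1 library. Abcg5 forms with Abcg8 the pump that returns sterols to the gut lumen. It stood at 565, 553 and 403 CPM in control, 216, 154 and 224 CPM with CBLB502 alone, 503, 566 and 458 CPM after 15 Gy and 634, 499.7 and 438 CPM with both, and only CBLB502 alone lay apart. Its interaction was 1.40 ± 0.27 (adjusted p = 0.0266), and that of its partner Abcg8, which overlaps it on the opposite strand, was 1.23 ± 0.46 (adjusted p = 0.363). Agmo, the monooxygenase that cleaves ether lipids, stood at 213, 236 and 189 CPM in control, 78.0, 84.2 and 100.2 CPM with CBLB502 alone, 205, 201 and 196 CPM after 15 Gy and 189, 209 and 224 CPM with both. Control, 15 Gy and the combined group overlapped, all CBLB502-alone libraries were at or below 100.2 CPM, and the interaction was 1.33 ± 0.21 (adjusted p = 0.00966). Acot4, a peroxisomal enzyme that splits acyl-CoA esters, stood at 27.3, 27.5 and 33.5 CPM in control, 18.2, 22.8 and 19.5 CPM with CBLB502 alone, 26.9, 33.9 and 27.8 CPM after 15 Gy and 40.8, 43.4 and 40.7 CPM with both. Besides CBLB502 alone lying lowest, the combined group lay above all other libraries, and the interaction was 1.04 ± 0.21 (adjusted p = 0.0404), called in 2 of the 12 fits that left out 1 library.

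The other called genes have varied roles. Plbd1, a phospholipase B-like protein, stood at 18.6, 11.8 and 14.8 CPM with CBLB502 alone, against 149.5, 129 and 57.4 CPM in control, 128, 93.6 and 144 CPM after 15 Gy and 66.0, 92.5 and 112 CPM with both. The CBLB502-alone libraries lay below the other 9, and the interaction was 2.46 ± 0.48 (adjusted p = 0.0266). Tcea3, a transcription elongation factor, stood at 3.52, 3.35 and 2.26 CPM with CBLB502 alone, against 8.70, 9.09 and 6.42 CPM in control, 8.81, 9.45 and 9.82 CPM after 15 Gy and 9.09, 10.3 and 9.18 CPM with both. Its interaction was 1.43 ± 0.27 (adjusted p = 0.0266), with 9.36 ± 0.51 CPM after 15 Gy and 9.52 ± 0.66 CPM with both, so that CBLB502 made a difference of 0.02 ± 0.19 there. Pros1, Ccne2, Trub2 and Ccdc152 lay under 5 FPKM in every group and were named after their values were seen. Pros1 encodes protein S, an anticoagulant that also bridges dying cells to phagocytes, and stood at 0.647, 0.989 and 1.20 CPM with CBLB502 alone, against 4.24, 6.17 and 9.68 CPM in control, 6.74, 12.6 and 10.9 CPM after 15 Gy and 8.41, 10.9 and 14.2 CPM with both. Its interaction was 2.97 ± 0.51 (adjusted p = 0.0157). Ccne2, cyclin E2 of the entry into S phase, had 11 ± 5.15 CPM in control, 2.88 ± 0.364 CPM with CBLB502 alone, 9.64 ± 2.12 CPM after 15 Gy and 14.4 ± 0.942 CPM with both. Its interaction of 2.52 ± 0.52 (adjusted p = 0.0404) was called in 1 of the 12 fits that left out 1 library. Trub2, a mitochondrial pseudouridine synthase, stood at 8.81, 8.10 and 9.80 CPM with CBLB502 alone, against 21.8, 23.9 and 25.9 CPM in control, 21.4, 27.8 and 24.0 CPM after 15 Gy and 34.0, 32.7 and 26.0 CPM with both. The CBLB502-alone libraries lay lowest without overlap, and the interaction of 1.76 ± 0.24 (adjusted p = 0.00128) was called in all 12 fits that left out 1 library.

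Several of these genes overlap others. Of the 25 called genes, 15 overlap another gene of the table, and for 7 the partner had at least 20% of their mean count. Reads from such pairs cannot be told apart where strand was not used, and the strand setting is not given in the sources used here. Ccdc152 lies opposite Selenop, the plasma selenium carrier, which had 342200 mean counts against 57.4 for Ccdc152. Ccdc152 stood at 1.43, 1.22 and 0.924 CPM in control and 0.034, 0.122 and 0.185 CPM with CBLB502 alone. It stood at 0.640, 1.16 and 1.10 CPM after 15 Gy and 1.86, 0.992 and 1.66 CPM with both. The first value with CBLB502 alone is under the 0.051 CPM that 3 counts make in that library. The interaction of Ccdc152 was 4.01 ± 0.80 (adjusted p = 0.0337) and that of Selenop 1.82 ± 0.45 (adjusted p = 0.108). Selenop stood at 7960, 8710 and 4649 CPM in control, 1605, 1591 and 3099 CPM with CBLB502 alone, 7492, 7528 and 6724 CPM after 15 Gy and 7349, 7045 and 8245 CPM with both, lowest with CBLB502 alone as Ccdc152 was. The partners of Trub2 and Ccne2 had interactions near 0. Coq4, opposite Trub2, had 0.13 ± 0.36, and Ints8, opposite Ccne2, -0.18 ± 0.18.

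**Figure D3:**
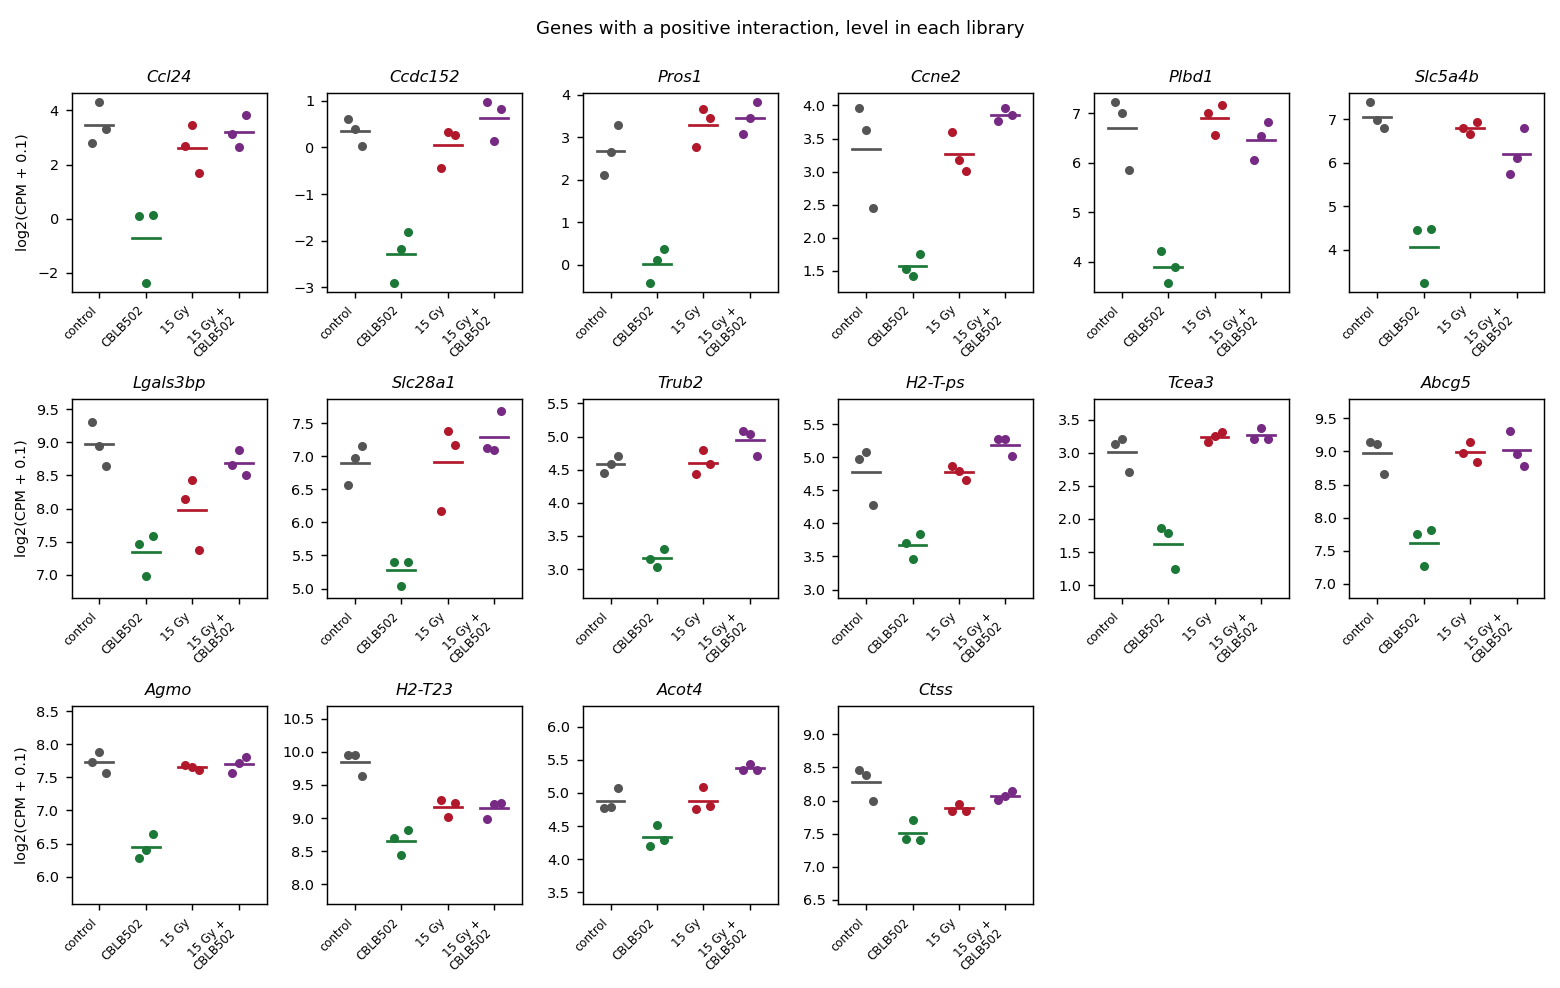
Levels of 16 of the 17 genes with a positive interaction in each of the 12 libraries, as log2(CPM + 0.1), with 1 point per library and a line at the group mean. In each panel the group mean of CBLB502 alone (green) is the lowest, and in the Lgals3bp panel 1 library of 15 Gy lies among its points.

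Antimicrobial and epithelial defence genes had the lowest interaction median of the lists described, -2.39 over 14 tested of 18 listed, beside -0.01 over all genes, but none was called in the interaction (25 genes or 0.225% over all genes). At an unadjusted p under 0.05 there were 7 lower and 0 higher (4.15% and 5.25% over all genes), and 13 of the 14 estimates were below 0. Reg3b and Reg3g encode lectins that kill bacteria near the epithelium. Reg3b stood at 10090, 5266 and 11430 CPM in control, 35690, 43650 and 27610 CPM with CBLB502 alone, 8544, 2844 and 4713 CPM after 15 Gy and 3089, 3822 and 2658 CPM with both. Reg3g stood at 5907, 3051 and 7417 CPM in control, 17220, 20260 and 16830 CPM with CBLB502 alone, 5620, 1424 and 3379 CPM after 15 Gy and 1192, 2262 and 1487 CPM with both. For both the CBLB502-alone libraries lay above the other 9, the combined group had the lowest mean, and the combined group and 15 Gy overlapped. Both rose with CBLB502 alone, by 2.0 ± 0.45 and 1.73 ± 0.46, and the interactions were -2.75 ± 0.62 (adjusted p = 0.0752) and -2.81 ± 0.65 (adjusted p = 0.0784). Saa1, a serum amyloid protein made by the epithelium in response to bacteria, stood at 20.2, 3.35 and 5.77 CPM in control, 78.1, 14.8 and 60.4 CPM with CBLB502 alone, 29.8, 0.553 and 9.42 CPM after 15 Gy and 0.137, 0.378 and 0.140 CPM with both. Its libraries spread widely within control and 15 Gy, the combined group lay lowest, and the interaction was -8.28 ± 2.09 (adjusted p = 0.111). At 6 Gy and 24 h Saa1 had 0.034 ± 0.030 CPM without CBLB502 and 1.33 ± 0.64 CPM with it.

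Nos2 and Duox2, which make nitric oxide and hydrogen peroxide for defence, had lower means with CBLB502 alone than in control. Nos2 stood at 59.1, 65.8 and 52.2 CPM in control, 26.4, 13.7 and 25.6 CPM with CBLB502 alone, 243, 3.02 and 39.0 CPM after 15 Gy and 0, 0.591 and 0.229 CPM with both. The library of the combined group with 0 counts allows up to 0.0375 CPM (3 counts, counting error only). Duox2 stood at 283, 236 and 91.7 CPM in control, 145, 42.2 and 138 CPM with CBLB502 alone, 153, 5.23 and 101 CPM after 15 Gy and 1.32, 2.08 and 1.44 CPM with both. In both genes the combined group lay below the other 9 libraries, and 15 Gy replicate 2 lay far below the other 2 of its group. Low levels were not particular to the combined group. At 6 Gy and 24 h without CBLB502, Nos2 had 0.884 ± 0.650 CPM and Duox2 2.53 ± 1.63 CPM. With CBLB502 at that dose and time they had 1.26 ± 1.58 and 5.81 ± 5.39 CPM. The interactions were -6.99 ± 1.99 (adjusted p = 0.188) for Nos2 and -4.83 ± 1.40 (adjusted p = 0.199) for Duox2. As a difference of CPM the value for Duox2 had the opposite sign, 10.1 CPM. The chemokine Ccl20, a known flagellin target that attracts CCR6-bearing lymphocytes, stood at 1.19, 1.21 and 1.36 CPM in control, 3.86, 10.3 and 3.05 CPM with CBLB502 alone, 1.67, 2.01 and 1.08 CPM after 15 Gy and 0.387, 0.319 and 1.15 CPM with both. It rose by 2.20 ± 0.60 with CBLB502 alone, where all 3 libraries lay above the rest, and its interaction was -3.56 ± 0.84 (adjusted p = 0.0842). Lcn2, an iron-trapping protein, stood at 1.20, 2.98 and 2.65 CPM in control, 10.2, 14.9 and 3.25 CPM with CBLB502 alone, 2.0, 1.86 and 0.883 CPM after 15 Gy and 1.29, 1.25 and 1.90 CPM with both and its interaction was -2.15 ± 0.99 (adjusted p = 0.51). Of the 10 genes of the chemokine list that were tested, 1 was called, Ccl28 (0.225% over all genes), and the median was -0.13. The called chemokine gene Ccl24 is not in that list.

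Genes of the TLR5 pathway itself showed no called interaction. Tlr5 and Cxcl1 were below the filter. Of 22 genes of TLR5 signalling and NF-kB targets 13 were tested, the interaction median was -0.31, and 11 of the 13 estimates were below 0. None was called for CBLB502 alone at 24 h either. Nfkbia, the inhibitor that NF-kB induces to switch itself off, stood at 61.7, 79.8 and 65.4 CPM in control, 54.5, 60.1 and 56.7 CPM with CBLB502 alone, 76.4, 37.0 and 36.2 CPM after 15 Gy and 26.5, 28.0 and 23.4 CPM with both. The combined group lay below the other 9 libraries, and the interaction was -0.67 ± 0.33 (adjusted p = 0.545). At 6 Gy and 24 h Nfkbia had 28.1 ± 1.86 CPM without CBLB502 and 30.1 ± 3.41 CPM with it. Tnfaip3, another feedback inhibitor, had 38.0 ± 28.5 CPM in control and 19.0 ± 8.59 CPM with both, with groups that overlapped.

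Sterol synthesis was the list with the highest median for CBLB502 without radiation. The median was 1.39 over 20 tested of 21, and 5 of the 20 rose (background 2.48% of genes higher), while with 15 Gy the median of the CBLB502 effect was 0.04. The interaction median was -1.08, 19 of 20 estimates were below 0, and none was called. At an unadjusted p under 0.05, 8 of 20 were lower (4.15% over all genes). Cyp51, which removes a methyl group from lanosterol, stood at 32.8, 17.9 and 33.3 CPM in control, 253, 99.3 and 36.8 CPM with CBLB502 alone, 21.7, 11.3 and 20.1 CPM after 15 Gy and 11, 13.2 and 17.1 CPM with both. Fdft1, squalene synthase, stood at 21.8, 15.9 and 9.87 CPM in control, 118, 66.4 and 23.8 CPM with CBLB502 alone, 10.5, 10.1 and 7.79 CPM after 15 Gy and 8.79, 6.12 and 14.7 CPM with both. Mvk, mevalonate kinase, stood at 9.58, 7.48 and 10.2 CPM in control, 30.1, 19.8 and 11.5 CPM with CBLB502 alone, 5.75, 6.36 and 7.55 CPM after 15 Gy and 6.27, 5.85 and 8.46 CPM with both. In each gene the CBLB502-alone libraries lay above the other 9 and were lowest in replicate 3, whose mitochondrial share, 24.6%, was the highest of the 12. The interactions were -2.58 ± 0.82 (adjusted p = 0.262), -2.07 ± 0.83 (adjusted p = 0.418) and -1.11 ± 0.40 (adjusted p = 0.33). The 15 Gy effect in mice given CBLB502 lowered 14 of the 20 genes (8.19% over all genes), against 1 (2.31% over all genes) for 15 Gy without CBLB502.

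Interferon-stimulated genes had mostly positive interaction estimates. Over 33 tested of 34 the median CBLB502 effect was -0.66 without radiation and 0.49 with 15 Gy, and the interaction median was 1.26. Of the 33 estimates 32 were above 0, and 14 were higher and 1 lower at an unadjusted p under 0.05, against 9.40% of all genes in either direction. None was called in the interaction. Oas3, an antiviral synthetase, stood at 183, 158 and 199 CPM in control, 108, 75.9 and 108 CPM with CBLB502 alone, 101, 88.4 and 70.5 CPM after 15 Gy and 131, 141 and 94.5 CPM with both. Control lay highest, CBLB502 alone and 15 Gy overlapped, and the combined group lay below control and overlapped both. Oas3 fell with each treatment alone, by 0.89 ± 0.22 with CBLB502 and by 1.05 ± 0.22 with 15 Gy, and its interaction was 1.38 ± 0.31 (adjusted p = 0.0752). Gbp3, a guanylate-binding protein, stood at 8.79, 7.48 and 13.0 CPM in control, 4.54, 2.37 and 4.55 CPM with CBLB502 alone, 3.84, 5.28 and 2.79 CPM after 15 Gy and 9.54, 12.9 and 6.30 CPM with both. Its control and combined groups overlapped, both treatments alone gave lower means, and the interaction was 2.62 ± 0.85 (adjusted p = 0.269). Bst2, which tethers budding viruses, stood at 35.9, 24.0 and 41.1 CPM in control, 21.4, 7.49 and 10.5 CPM with CBLB502 alone, 12.9, 10.5 and 12.4 CPM after 15 Gy and 14.8, 26.0 and 17.2 CPM with both, with an interaction of 2.05 ± 0.68 (adjusted p = 0.281). So Oas3, Gbp3 and Bst2 had lower means under either treatment alone than in control, and means nearer to control under both.

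Antigen presentation genes had positive medians as well. All 13 MHC class I pathway genes had estimates above 0, the median was 0.72, and 1 was called, H2-T23 (0.225% over all genes). The peptide transporter gene Tap2 stood at 86.8, 82.2 and 104 CPM in control, 76.5, 76.4 and 61.3 CPM with CBLB502 alone, 77.2, 90.8 and 72.8 CPM after 15 Gy and 89.5, 102 and 120.0 CPM with both, and its interaction was 0.72 ± 0.20 (adjusted p = 0.178). For MHC class II the median was 0.97 over 9 genes and 1 was called, Ctss (0.225% over all genes). With CBLB502 alone 6 of the 9 fell (3.26% over all genes), and the median CBLB502 effect was -1.82 without radiation and -1.02 with 15 Gy. H2-Eb1 stood at 269.6, 269 and 277 CPM in control, 72.7, 32.4 and 50.6 CPM with CBLB502 alone, 288, 139.6 and 237 CPM after 15 Gy and 79.7, 113 and 135 CPM with both. CBLB502 alone lay lowest, the combined group lay next, and the interaction was 1.37 ± 0.71 (adjusted p = 0.571). Macrophage and neutrophil markers also had a negative median with CBLB502 alone and a positive interaction median, but unlike MHC class II a median near 0 with 15 Gy. None was called in the interaction. Their median was -1.39 for CBLB502 alone, 0.07 with 15 Gy and 1.39 in the interaction over 9 tested of 19, and 1 fell with CBLB502 alone, Cd14 (3.26% over all genes). The 19 genes summed to 8.63 to 16.9 CPM with CBLB502 alone, against 16.4 to 32.8 CPM in the other 9 libraries, and 7 of the 19 were at 0 in all CBLB502-alone libraries. Cd14 stood at 4.38, 6.56 and 5.53 CPM in control, 3.17, 3.10 and 3.13 CPM with CBLB502 alone, 3.79, 4.86 and 5.19 CPM after 15 Gy and 5.08, 5.2 and 5.92 CPM with both, and its interaction was 1.04 ± 0.25 (adjusted p = 0.0912). The part of these cells in the values of Ctss, Ccl24 and the MHC genes was not tested.

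For cytochrome P450 and enteroendocrine genes the median CBLB502 effect was farther from 0 without radiation than with 15 Gy, a difference that was not tested for the lists. Of 19 cytochrome P450 genes tested, 6 fell and 1 rose with CBLB502 alone (3.26% and 2.48% over all genes), with a median of -0.98, while with 15 Gy the median was 0.02 and the interaction median 0.96, with none called. Cyp3a25, a drug-metabolizing enzyme, stood at 388, 751 and 656 CPM in control, 128, 87.1 and 93.4 CPM with CBLB502 alone, 332, 697 and 247 CPM after 15 Gy and 446, 369 and 329.5 CPM with both, and its interaction was 2.39 ± 0.55 (adjusted p = 0.0784). Cyp2c68 of the same enzyme class stood at 145, 172 and 154 CPM in control, 84.1, 92.1 and 54.0 CPM with CBLB502 alone, 122, 181 and 132 CPM after 15 Gy and 142, 153 and 173 CPM with both, with an interaction of 1.14 ± 0.26 (adjusted p = 0.077). For both, the CBLB502-alone libraries lay below the other 9. Enteroendocrine genes, of the hormone-secreting cells, had a median of 0.90 with CBLB502 alone, where 7 of 15 rose (2.48% over all genes), and of 0.15 with 15 Gy. All 15 interaction estimates were below 0, the median was -0.75, and 1 was called, Cpe (0.225% over all genes). Ghrl, the ghrelin gene, stood at 5.69, 7.04 and 4.49 CPM in control, 11.7, 17.4 and 22.1 CPM with CBLB502 alone, 5.17, 12.8 and 6.94 CPM after 15 Gy and 13.2, 9.19 and 10.8 CPM with both. Its interaction was -1.15 ± 0.47 (adjusted p = 0.44). The lactase gene Lct, a marker of mature enterocytes, stood at 2799, 3130 and 2364 CPM in control, 1463, 818 and 1611 CPM with CBLB502 alone, 3030, 3313 and 3107 CPM after 15 Gy and 2988, 3393 and 3381 CPM with both. Only CBLB502 alone lay apart, with an effect of -1.09 ± 0.21, and the interaction was 1.14 ± 0.29 (adjusted p = 0.119). Over the 28 enterocyte genes tested the median CBLB502 effect was -0.33 without radiation and -0.27 with 15 Gy, the interaction median was -0.07 and none was called. Among 23 genes of lipid absorption 1 was called, Abcg5 (0.225% over all genes), with a median of 0.22, and Cd36, a fatty acid receptor, had 1.72 ± 0.45 (adjusted p = 0.129).

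**Figure D4:**
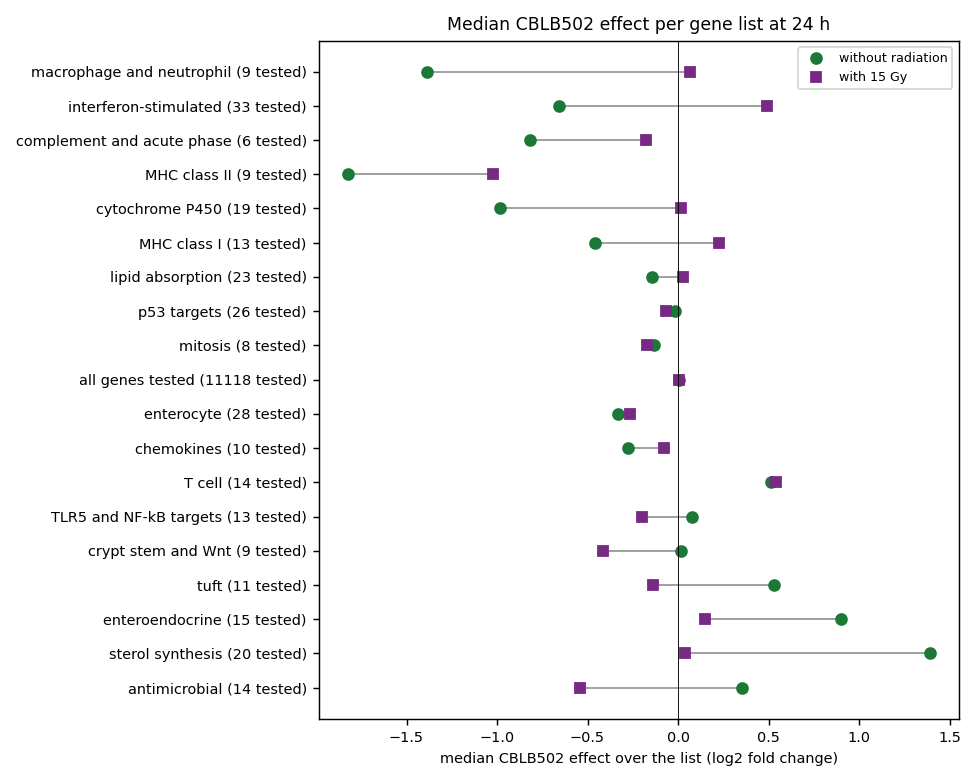
Median log2 fold change of CBLB502 over the tested genes of each list, without radiation (green circles) and with 15 Gy (purple squares), sorted by the interaction median. Sterol synthesis lies at 1.39 without radiation and at 0.04 with 15 Gy, interferon-stimulated genes at -0.66 and 0.49, and all genes tested near 0 in both.

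**Figure D5:**
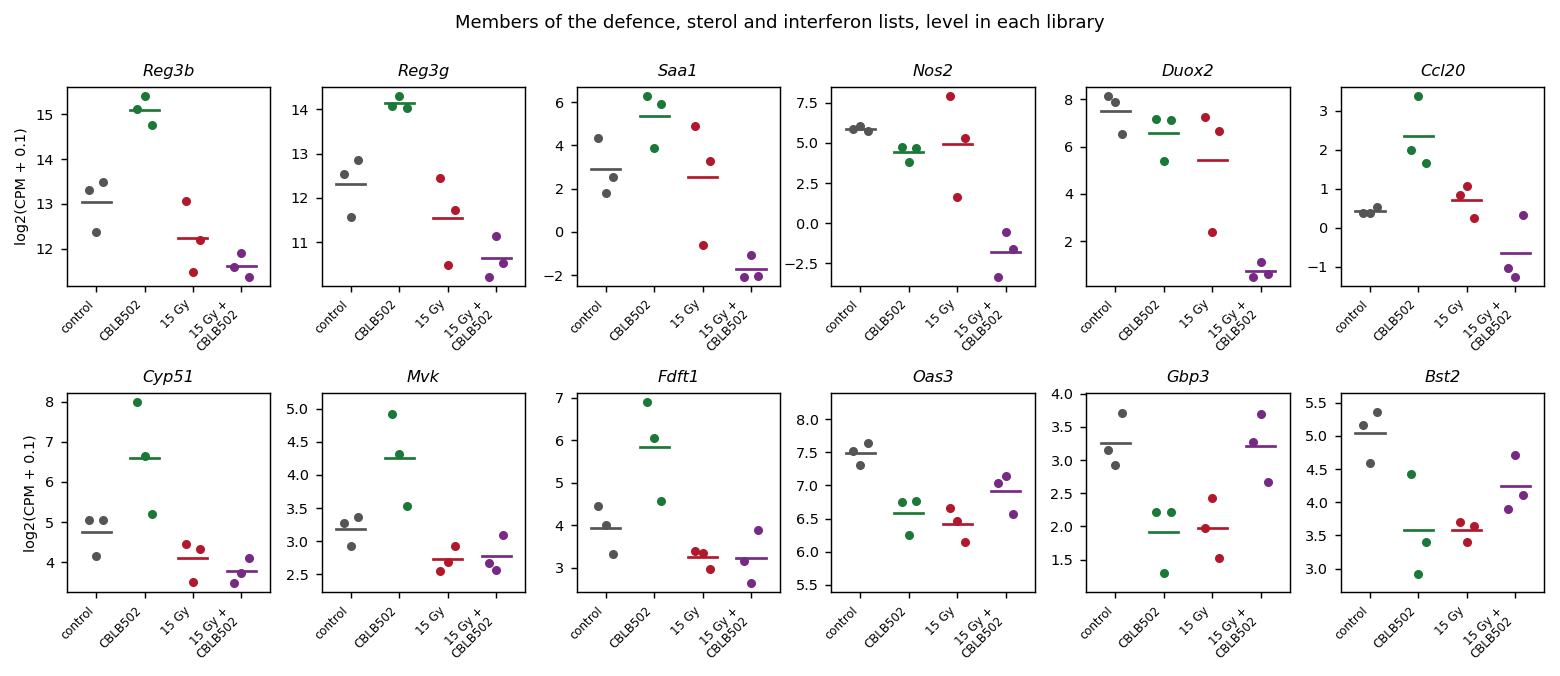
Levels of 12 members of the defence, chemokine, sterol and interferon lists in each of the 12 libraries, as log2(CPM + 0.1), with 1 point per library and a line at the group mean. The top panels show the combined group (purple) with the lowest mean, and the panels of Cyp51, Mvk and Fdft1 show the CBLB502-alone points (green) above the rest.

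Genes of the radiation response showed no called interaction. Of 26 p53 targets tested, 14 rose and 1 fell after 15 Gy alone (2.63% and 2.31% over all genes), and 16 rose and 2 fell after 15 Gy on top of CBLB502 (8.97% and 8.19%). Their interaction median was 0.10. Ccng1, a p53 target that encodes cyclin G1, stood at 19.6, 21.9 and 17.1 CPM in control, 21.8, 27 and 23.1 CPM with CBLB502 alone, 118, 103 and 102 CPM after 15 Gy and 99.4, 89.0 and 103 CPM with both. Both irradiated groups lay above both others without overlap, and the interaction was -0.44 ± 0.21 (adjusted p = 0.525). Phlda3, an AKT inhibitor induced by p53, stood at 2.60, 2.33 and 3.71 CPM after 15 Gy and 1.51, 1.94 and 3.14 CPM with both. It had 0 counts in all 3 CBLB502-alone libraries, which allows up to 0.0156 CPM over the group, and 0, 0.0535 and 0 CPM in control, so no fold is given for CBLB502 alone. Cdkn1a, the p53-induced inhibitor of the cell cycle, stood at 406, 406 and 425 CPM in control, 349.7, 394 and 549.6 CPM with CBLB502 alone, 358, 266 and 289.6 CPM after 15 Gy and 254, 287 and 232 CPM with both. It did not rise with either treatment. It fell with 15 Gy on top of CBLB502 (-0.74 ± 0.18, adjusted p = 0.00827) and was not called for 15 Gy alone (-0.44 ± 0.18, adjusted p = 0.162). Its interaction was -0.30 ± 0.26 (adjusted p = 0.802). Mdm2, the ligase that limits p53, had an interaction of -0.09 ± 0.24, the proliferation marker Mki67 0.00 ± 0.76 and the stem cell marker Olfm4 -0.10 ± 1.73, and for these 3 the sign changed between fits. The epithelial stress gene Clu had 0.79 ± 1.02 (adjusted p = 0.898). Lgr5, another stem cell marker, and Ms4a1, a B cell marker, were below the filter.

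The 2 CBLB502 effects share no library, so they can be set side by side. Of the 638 genes called for CBLB502 alone, 485 (76.0%) had the same sign with 15 Gy, against 61.0% of all genes tested. The 276 that rose had a median of 1.05 without radiation and 0.22 with it, and the 362 that fell had medians of -0.90 and -0.14. The genes were chosen by their effect without radiation, so these medians describe the chosen genes only. Across all 11118 genes, which are not independent replicates, Pearson's r between the effects was 0.22 and Spearman's rho 0.31. The 2 effects of 15 Gy, without and with CBLB502, share no library either. Of the 549 genes called for 15 Gy alone, 521 (94.9%) had the same sign with CBLB502, against 69.5% of all, with medians of 0.87 and 0.72 for the 292 that rose and of -0.79 and -0.59 for the 257 that fell. Pearson's r was 0.34 and Spearman's rho 0.51.

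These counts rested on single libraries too. Leaving out control replicate 1 or 2 turned the 638 into 176 or 286, and leaving out CBLB502 replicate 1 or 2 turned them into 351 or 189. The 549 became 216 or 285 when control replicate 1 or 2 was left out, and 328, 305 or 365 when 15 Gy replicate 1, 2 or 3 was. The 1908 became 1268 without CBLB502 replicate 3 and 1218 without replicate 3 of the combined group. The 0 genes of CBLB502 with 15 Gy became 93 without 15 Gy replicate 2 and 3 without replicate 1 of the combined group. With the proximal score as a covariate, 58 genes were called for CBLB502 alone and 38 for the interaction, 23 of them among the 25. With the clock score as a covariate the interaction count was 26, again with 23 of the 25.

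The level of the called genes in the other 5 groups of the series, examined after the values were seen, differed between those groups. For each gene and group the mean log2(CPM + 0.1) was compared with that of CBLB502 alone and with the average of the other 3 groups of the interaction. At 6 Gy and 6 h the level was nearer to CBLB502 alone for 18 of the 25 genes, and at 15 Gy and 3 d for 16 of 25, against 45% and 47.5% of all genes tested. At 15 Gy and 6 h this was so for 3 of 25 (43.3% of all genes), at 6 Gy and 24 h for 4 of 25 (36.1%) and at 6 Gy and 24 h with CBLB502 for 5 of 25 (38.4%). The 638 genes called for CBLB502 alone are a closer comparison, since most of the 25 are among them. Of these 638, 50.9% were nearer at 6 Gy and 6 h, 56.6% at 15 Gy and 3 d and 22.7% at 15 Gy and 6 h. At 6 Gy and 24 h the share was 37.5% without and 43% with CBLB502. Fut2 had 301 ± 22.4 CPM at 6 Gy and 6 h and 184 ± 58.0 CPM at 15 Gy and 3 d, above the 46.5 ± 23 CPM of CBLB502 alone. At 15 Gy and 6 h it had 1.81 ± 1.22 CPM, and at 6 Gy and 24 h 0.971 ± 0.250 CPM without and 1.21 ± 0.567 CPM with CBLB502, within the range of the other 9 libraries of the interaction. Gml had 143 ± 2.16 CPM at 6 Gy and 6 h, 219 ± 41.1 CPM at 15 Gy and 3 d and 4.38 ± 0.682 CPM at 6 Gy with CBLB502. Slc28a1 had 8.47 ± 0.999 CPM at 6 Gy and 6 h and 12.5 ± 2.17 CPM at 15 Gy and 3 d, below the 39.1 ± 5.42 CPM of CBLB502 alone, and 129 ± 18.5 CPM at 6 Gy with CBLB502. Lgals3bp, Pros1 and Trub2 were nearer to CBLB502 alone in none of the 5 groups.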

How the data were processed

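RNA of 27 libraries in 9 groups was deposited as 1 table of 55401 genes. The deposited counts, whole numbers of reads for each gene, were made by the authors and entered the tests unchanged. The deposited FPKM values were computed by the authors, with 0.0001 in place of 0. Per the submitters' processing notes, Bowtie 0.12.2, HISAT2 2.0, StringTie 1.3.0 and the build mm8 were used, without their roles; no counting rule or strand setting is given in the sources used here. Gene positions are those of the table, printed with GRCm38 because 94.2% of its genes have the same coordinates in GENCODE vM21 (GRCm38).

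The 11118 genes that reached an FPKM of 1 in 3 or more libraries were fitted with edgeR 4.0.16 in R 4.3.3 (TMM, quasi-likelihood F test, 9 groups, Benjamini-Hochberg over all genes tested, threshold 0.05). The fit's common dispersion was 0.0961, equal to a coefficient of variation between libraries of 31.0%. Chi-square values of replicates, divided by their degrees of freedom, were 102 to 872, far above counting error. Total counts ran from 57.4 to 87.1 M over the 27 libraries, and intervals and floors cover counting error only. In simulated data with 200 of 11118 genes changed in the interaction, 4, 30, 68 and 94% of changes of 1.5, 2, 4 and 8-fold were recovered, with 4 unchanged genes among 102 calls. The changes were put in the combined group only, in genes above a minimum mean count, with the 4 groups otherwise equal. Counts were drawn with the dispersions of the fit and without outlying libraries. The data differ in this, so these shares do not give the error rate of the 25 calls.

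The genes named include up to 12 of the largest positive and up to 12 of the largest negative called interactions. These had a highest group mean of at least 5 FPKM, leaving out predicted genes, pseudogenes and receptor segments. Among the negative interactions only Fut2, Gml2, Gml and Cpe reached that level. Also named are, for each list described, at most 4 members, taken by adjusted p, and 22 single genes. 1 gene called in the interaction is counted but not reported here. The groups, lists and genes were chosen with earlier results of these data known, so no list count is a test. Alternatives were other filters, scalings and tools (DESeq2 1.42.0, limma 3.58.1 on log2(FPKM + 1) or log2(FPKM + 0.1)), other sets of libraries, a replicate block, covariates, and each of the 12 libraries left out.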

Additional observations from a re-analysis of the deposited data

Results flagged for a closer look

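The CBLB502 effect differed between irradiated and unirradiated mice, by edgeR's test of the difference itself, for 25 of 11118 genes (0.225%). The interaction, on the log2 scale, was -5.48 for Fut2, -5.24 for Gml2, -4.76 for Gml and -3.94 for Ccl28. It was -2.92 for Sh3bp5, -2.18 for Lyve1, -2.02 for Cpe and -1.74 for Slc38a1. Positive values of 2 or more were 4.65 for Ccl24, 4.01 for Ccdc152, 2.97 for Pros1, 2.52 for Ccne2, 2.46 for Plbd1, 2.40 for Slc5a4b and 2.28 for Lgals3bp. Smaller positive values were 1.95 for Slc28a1, 1.76 for Trub2, 1.56 for H2-T-ps, 1.43 for Tcea3, 1.40 for Abcg5, 1.33 for Agmo, 1.17 for H2-T23, 1.04 for Acot4 and 0.97 for Ctss. Of these, Fut2, Lyve1, Cpe, Agmo and Trub2 were called in each of the 12 fits that left out 1 library, and the other 19 named here were called in 1 to 10 of them.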

How the results depend on the processing

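The interaction was called for 25 genes, and for 4 with the 12 libraries fitted alone, 38 with the proximal score as a covariate and 128 with DESeq2. Leaving out 1 library gave 7 to 48. The CBLB502 effect without radiation (638 genes) gave 350 with no filter on low values, 356 and 372 with limma on log2(FPKM + 1) and log2(FPKM + 0.1), 239 with the 12 libraries alone, 412 without the 6 libraries of 6 Gy at 24 h, 58 with the proximal score, 1134 with DESeq2 and 176 to 779 with 1 library left out. The CBLB502 effect with 15 Gy (0 genes) gave 1 with no filter, 63 with DESeq2 and 0 to 93 with 1 library left out. The 15 Gy effect without CBLB502 (549 genes) gave 262 with no filter, 238 and 301 with limma in the same order, 125 with the 12 libraries alone, 292 without the 6 libraries, 824 with the mitochondrial share and 354 with the clock score as a covariate, 1061 with DESeq2 and 216 to 652 with 1 library left out. The 15 Gy effect with CBLB502 (1908 genes) gave 1254 with no filter, 1158 with the 12 libraries alone, 1233 with the clock score and 1218 to 2031 with 1 library left out. With limma on log2(FPKM + 1) the median of this effect over all genes was 0.13, against 0.02. Fits with libraries left out hold fewer samples. For the other settings the cause was not tested.

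All 25 called interactions kept their direction in the fits that held them. Signs changed for genes that were not called. The interaction of Mdm2 was 0.0006 with limma on log2(FPKM + 1) and -0.26 to 0.0809 with 1 library left out. The interaction of Olfm4 was 0.0798 and 0.10 with limma, 0.13 with the clock score and -1.51 to 1.17 with 1 library left out. The interaction of Tnfaip3 was -1.79 to 0.0934 with 1 library left out. The interaction of Mki67, near 0, was -0.0034 with median-ratio scaling, -0.0387 and -0.0069 with limma, -0.001 with the 12 libraries alone and also without the 6 libraries, -0.011 without mitochondrial genes, -0.0483 with the mitochondrial share, -0.31 with the proximal score, -0.0039 with DESeq2 and -0.45 to 0.38 with 1 library left out. Over 79 genes examined singly and 1966 such values, 1707 kept direction and call, 200 lost the call, 28 gained it and 31 changed sign. The fitted interaction of Phlda3 (3.26 ± 1.79, -0.18 and -0.21 with limma, -0.39 to 3.78 with 1 library left out) rests on groups at or near 0 counts, so no direction is read from it, although 3 of the 31 are its values.

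The correlation of same-numbered deviations from the group means ran from -0.08 to 0.25 and passed 0.1 in 6 of 18 pairs. Differently numbered libraries were not compared, so these values do not decide whether replicate numbers pair the samples. With a replicate block the interaction was called for 24 genes, 21 of them among the 25, the 2 CBLB502 effects for 545 and 0 genes and the 2 effects of 15 Gy for 511 and 1845, and the interaction of Mki67 was -0.0573. Depth limits Phlda3, Nos2, Amy2a3, Plvap and Acta2, each with at least 1 of the 12 libraries at 0 counts. It also limits the called gene Ccdc152, which had 0.034 to 0.185 CPM in the CBLB502-alone libraries. In simulated data with 3 libraries per group and changes in the combined group only, 4% of 1.5-fold, 30% of 2-fold and 68% of 4-fold changes were recovered.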

Other observations

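The interaction median over all genes tested was -0.01. Mitochondrially encoded genes had a median of -0.36 with all 13 estimates below 0, and nuclear genes of the respiratory chain -0.22 with 29 of 30 below 0. None of either list was called in the interaction. Of the 30 nuclear genes, 15 fell with 15 Gy on top of CBLB502 (8.19% over all genes) and 2 with 15 Gy alone (2.31% over all genes). Paneth cell genes had a median of 0.42 over 21 genes, tuft cell genes -0.57 over 11, goblet cell genes -0.16 over 15 and T cell genes -0.14 over 14, with none called. T cell genes had nearly the same median CBLB502 effect without radiation (0.52) and with 15 Gy (0.54). Clock genes had a median of -0.12 over 17. Of these, 4 fell and 2 rose with 15 Gy alone (2.31% and 2.63% over all genes), and 7 fell and 2 rose with 15 Gy on top of CBLB502 (8.19% and 8.97%).

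The complement gene Mbl2, whose product binds microbial sugars, stood at 43.4, 50.4 and 38.2 CPM in control, 6.58, 1.81 and 2.64 CPM with CBLB502 alone, 582, 470.0 and 892 CPM after 15 Gy and 208, 293 and 571 CPM with both. CBLB502 alone lay lowest, control next and the irradiated groups highest, and only the irradiated groups overlapped each other. Mbl2 fell by 3.58 ± 0.64 with CBLB502 alone and rose by 3.88 ± 0.64 with 15 Gy alone, and its interaction was 2.73 ± 0.83 (adjusted p = 0.23). As a difference of CPM the interaction of Mbl2 had the opposite sign, -250.2 CPM.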
